A study of Mus musculus with 39 samples.

Results

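A set of 10 genes that carry neutrophils into tissue or mark them once there were followed through AB1-HA mesothelioma tumours: the chemokines Cxcl1, Cxcl2 and Cxcl5, the receptors Cxcr2, Csf3r, Trem1 and Il1r2, and the neutrophil-enriched transcripts S100a8, S100a9 and Retnlg. They were selected on earlier results of the same tumours, by gene symbol. Of the 10 genes, 9 had a row among the 39676 genes of the count table, and Retnlg was not analysed here. The tumours were AB1-HA, a line of murine mesothelioma cells with an added influenza haemagglutinin gene, grown under the skin of BALB/c mice, 1 tumour on each side. The tumour of 1 side was removed on day 9 for bulk RNA sequencing, and the other was left in place to see whether it regressed. All 39 tumours derive from this 1 transfected line, in immunocompetent hosts. 10 tumours came from mice given PBS and 9 from mice given tretinoin (all-trans retinoic acid) at 5 mg/kg in 5 daily doses from day 4. A further 10 came from mice given immune checkpoint therapy (ICT), which was anti-CTLA-4 plus anti-PD-L1, 100 µg of each from day 7. The last 10 came from mice given both in a staggered schedule, tretinoin from day 4 and ICT from day 7. The doses are those of the labels, and the study's text gives other values in places. Response was labelled in the combined group alone, where 6 tumours came from responders and 4 from non-responders. Age and sex of each mouse were not in the labels. Each treatment was spread over 2 name series (the first digit of the tumour's number, from 1 to 8), and no series held 2 treatments, so series and treatment cannot be told apart beyond comparing one series with another.

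Neutrophils are short-lived phagocytes that leave the blood along gradients of chemokines. In mice, CXCL1, CXCL2 and CXCL5 are secreted by tumour cells, stroma, macrophages and neutrophils themselves, and they act through CXCR2 on the neutrophil surface. G-CSF, read through the receptor CSF3R, drives neutrophil production in the marrow, and S100A8 and S100A9 form calprotectin, the most abundant protein pair of the neutrophil cytoplasm. None of these genes is wholly private to neutrophils: monocytes also carry Csf3r, Trem1, S100a8 and S100a9. In bulk tumour RNA, fewer neutrophils and less RNA per neutrophil cannot be told apart.

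The 3 chemokine genes lie in one cluster on chromosome 5 (GRCm38, GENCODE M21), Cxcl5 at chr5:90759360-90761624, Cxcl1 at chr5:90891241-90893115 and Cxcl2 at chr5:90903871-90905938, all on the plus strand. Cxcl1 ended 10755 bases before Cxcl2 began. S100a8 (chr3:90668978-90670035, plus strand) and S100a9 (chr3:90692632-90695721, minus strand) were 22596 bases apart. The receptor genes were at chr1:74153989-74161246 (Cxcr2), chr1:40074079-40125231 (Il1r2), chr4:126024550-126044440 (Csf3r) and chr17:48232768-48246924 (Trem1). All 9 are protein-coding, reads were counted over their exons, and no exon of theirs overlapped an exon of another annotated gene.

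RefSeq promoter windows (GRCm38.p6, 250 bases before to 50 after the start) were found for 8 of the 9 genes, all but Cxcl5. The Il1r2 window (chr1:40085843-40086142) lies inside the GENCODE gene given above, so the bases before that gene's GENCODE start were not searched. The 8 windows were searched on both strands for GGGA and TTCC with any 2 bases between them, the core of an NF-kB site, for TTGCNNAA, the core of a C/EBP site, and for TGANTCA, an AP-1 site. NF-kB carries inflammatory signals to chemokine genes, and C/EBP factors drive the myeloid program. The NF-kB letters were present in 3 of the 8 windows (Cxcl1, Cxcl2 and Csf3r), against 1.47% of 32851 windows of the same length. In Cxcl1 and Cxcl2, 11 bases read as a match on both strands, and the 2 promoters are shown for that shared stretch, with Csf3r for comparison. The printed stretches stop before the annotated gene, and the capitals mark the NF-kB letters.
Cxcl1 (chr5:90891095-90891240, plus strand): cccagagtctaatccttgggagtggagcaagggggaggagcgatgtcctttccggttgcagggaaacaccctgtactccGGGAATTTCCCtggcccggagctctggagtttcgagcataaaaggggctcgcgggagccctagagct
Cxcl2 (chr5:90903749-90903870, plus strand): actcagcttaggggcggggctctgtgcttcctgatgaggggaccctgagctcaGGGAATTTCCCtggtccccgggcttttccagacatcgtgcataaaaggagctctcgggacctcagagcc
Csf3r (chr4:126024509-126024549, plus strand): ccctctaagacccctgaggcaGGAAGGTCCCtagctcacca
The longest run shared by the 250 bases before Cxcl1 and Cxcl2 was 14 bases, gggaatttccctgg, and it contained the motif, at position -71 of Cxcl1 and -97 of Cxcl2 counted from the start. Only S100a9 among the 8 held the C/EBP letters, which 10.8% of all windows held, and none held the AP-1 letters, which 7.81% held. These are matches of letters, not measured binding.

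Depth was 14033046 to 37951183 counts a tumour (median 18548168). Levels are given as CPM (read counts relative to library size, after TMM scaling). Per kilobase of exon, the median level in PBS tumours was highest for S100a9 (16.8 CPM per kilobase), Csf3r (11.9) and Cxcl5 (11.6), followed by S100a8 (6.46), Cxcl1 (3.56), Il1r2 (3.46), Cxcr2 (2.39) and Trem1 (1.14). Cxcl2 was the scarcest, at 0.573 CPM per kilobase, which rested on 7 to 35 counts per PBS tumour. Of the other genes used to define neutrophils, Ly6g, Ngp and Camp were close to absent. Ly6g, the surface antigen that defines mouse neutrophils, had 0 to 8 counts per tumour and was at 0 in 11 of 39. Ngp and Camp, secondary granule genes transcribed in marrow precursors, had 0 to 31 and 0 to 6 counts. Ltf and Cd177 had counts in all 39 tumours, 3 to 51 (median 14) and 3 to 154 (median 26). Of the mesothelial markers, Upk3b and Krt19 had medians under 0.5 CPM, and the list summed to 0.328 to 6.18 CPM.

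**Figure D1:**
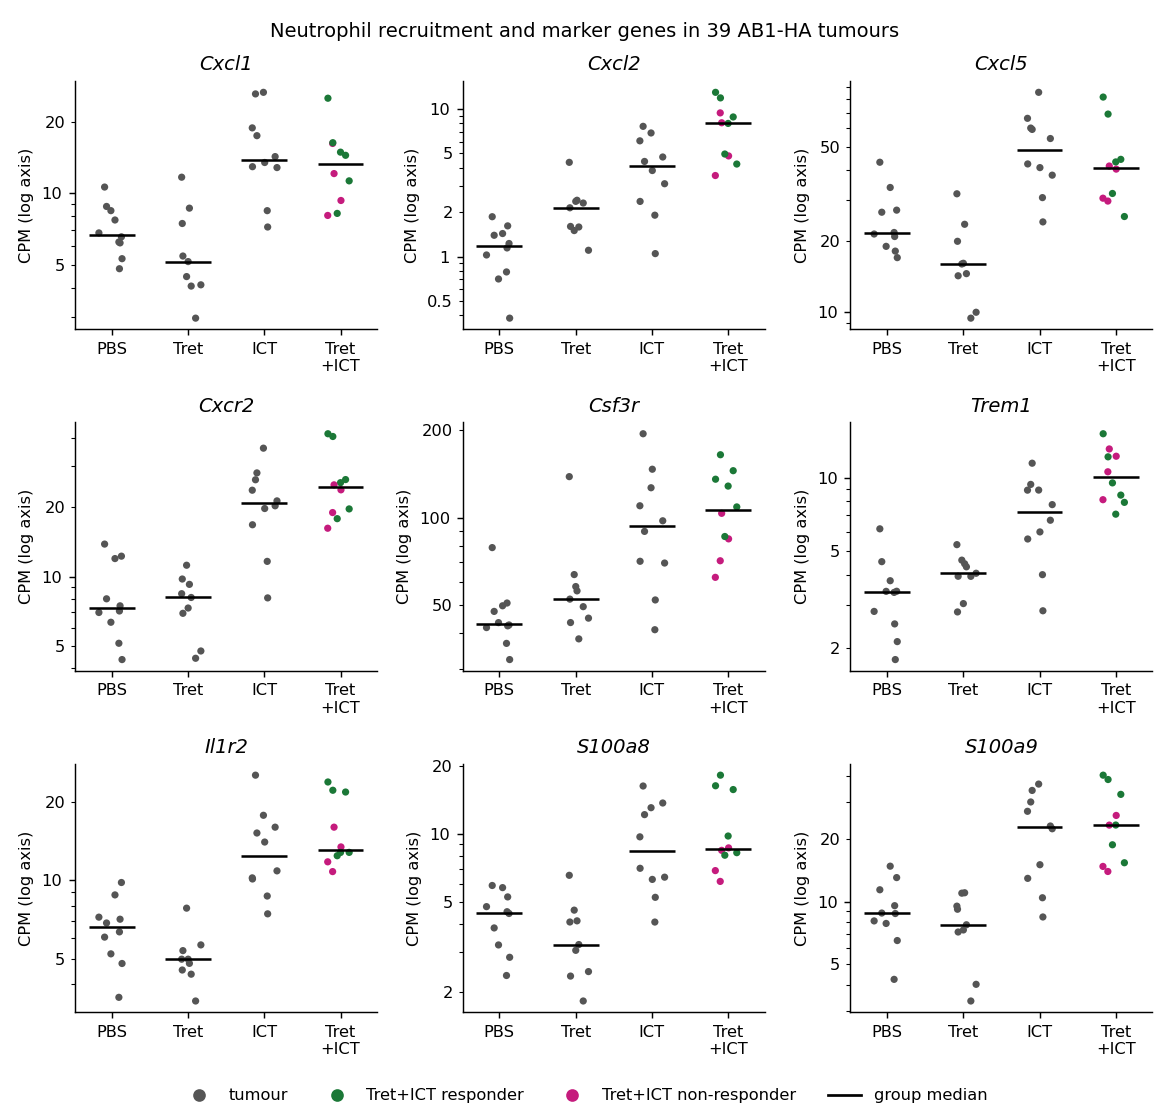
CPM on a log axis for the 9 genes, 1 point per tumour, in the PBS, tretinoin, ICT and tretinoin+ICT groups, with responders and non-responders coloured within the combined group and a bar at each group median. All 9 medians are higher in the groups with ICT than in those without it, and for Cxcl2 the tretinoin median (2.14) is also above the PBS median (1.19).

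ICT alone was compared with PBS to see what checkpoint blockade did to these genes by day 9. All 9 genes had higher levels in ICT tumours, by 1.01 to 1.85 on the log2 scale, and all 9 were called (edgeR's quasi-likelihood test, Benjamini-Hochberg adjusted p under 0.05 over all genes tested and a log2 fold change of at least 1). Across the transcriptome 2.28% of 14155 genes were called higher. Because the genes were selected on contrasts such as this one, their counts and p-values in every treatment comparison describe them and carry no further weight.

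Among the ligands, Cxcl2 had the steepest change. Its level was 0.383, 1.19 and 1.86 CPM (lowest, median, highest) in PBS tumours and 1.05, 4.12 and 7.63 CPM in ICT tumours, a log2 fold change of 1.85 ± 0.31 (SE; adjusted p = 0.000905). 9 of 10 ICT tumours were above every PBS tumour, and the exception, tumour 85, was below the PBS median. Cxcl1 went from 4.81, 6.68 and 10.6 CPM to 7.21, 13.9 and 26.7 CPM (1.15 ± 0.21, adjusted p = 0.00186), with 8 of 10 ICT tumours above all PBS tumours. Cxcl5, a chemokine made largely by epithelial and stromal cells, was the most abundant ligand in counts. It had 17.1, 21.6 and 43.2 CPM in PBS and 24.1, 48.4 and 85.2 CPM in ICT tumours (1.01 ± 0.21, adjusted p = 0.00415). Every ICT tumour exceeded the PBS median for Cxcl1 and Cxcl5, yet 5 of 10 Cxcl5 values fell within the PBS range.

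Their receptor followed. Cxcr2 had 4.37, 7.28 and 13.8 CPM in PBS tumours and 8.09, 20.8 and 36.0 CPM in ICT tumours (1.34 ± 0.25, adjusted p = 0.00183). 8 of 10 ICT tumours lay above the PBS range and all 10 above its median. Csf3r, the G-CSF receptor, rose from 32.4, 42.99 and 78.8 CPM to 41.01, 93.5 and 194.6 CPM (1.103 ± 0.24, adjusted p = 0.00456). Here the groups overlapped more widely, with 6 of 10 ICT tumours above all PBS tumours. Trem1, which amplifies inflammatory signalling in neutrophils and monocytes, rose by 1.08 ± 0.23 (adjusted p = 0.00456) from 1.80, 3.41 and 6.17 CPM to 2.85, 7.22 and 11.5 CPM. Il1r2, the decoy receptor that binds IL-1 without signalling, rose by 1.04 ± 0.20 (adjusted p = 0.00271) from 3.57, 6.61 and 9.81 CPM to 7.45, 12.4 and 25.2 CPM. The calprotectin genes moved as a pair. S100a8 rose from 2.36, 4.48 and 5.91 CPM to 4.07, 8.37 and 16.3 CPM (1.13 ± 0.24, adjusted p = 0.004), and S100a9 from 4.24, 8.79 and 14.8 CPM to 8.44, 22.7 and 36.6 CPM (1.24 ± 0.26, adjusted p = 0.00443). The ratio of S100a9 to S100a8 per kilobase had a median of 2.93 in PBS and 3.29 in ICT tumours, with ranges of 2.22 to 3.90 and 2.14 to 4.62.

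For none of the 9 genes did all ICT tumours lie above all PBS tumours, as 0.389% of genes tested did. The spread of the ICT group was wide: tumour 85 was its lowest for Cxcl1, Cxcl2, Cxcl5, Cxcr2, Trem1, Il1r2 and S100a9, and tumours 83 and 63 its highest for 4 and 4 of the 9 genes. Several fold changes sat close to the minimum of 1. Leaving out 1 tumour at a time, 6 to 9 genes stayed called, and the highest adjusted p of any gene was 0.0108. Cxcl5 fell under the fold minimum (0.90 to 0.99) without any one of tumours 12, 13, 52, 53, 54, 55, 62, 63, 81, 83 or 84, Il1r2 (0.897 to 0.998) without 13, 63, 83 or 84, Csf3r (0.95) without 63 and Trem1 (0.98) without 62. Comparing single name series, 5 tumours against 5, gave log2 fold changes of 0.70 to 1.98 for all 9 genes. In 3 of these 4 pairs of series no gene was called, with adjusted p-values up to 0.278, and in the remaining pair, series 8 against 5, 8 were.

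Markers of monocytes and macrophages moved in the same comparison. The summed level of 5 macrophage markers (Csf1r, Cd68, Mertk, C1qa, Mrc1) was 1633 to 2364 CPM in PBS and 1782 to 3585 CPM in ICT tumours, and that of 3 monocyte markers (Ly6c2, Ccr2, Chil3) 293 to 664 CPM and 314 to 1064 CPM. Of these 8 genes, all 8 had an adjusted p under 0.05 and Mertk, Ly6c2 and Chil3 were also past the fold minimum. The pan-leukocyte gene Ptprc changed by 0.57 (adjusted p = 0.0723). The sum of 4 T cell markers was 27.5 to 54.9 CPM in PBS and 22.3 to 99.9 CPM in ICT tumours. Its median was lower with ICT (28.3 CPM) than with PBS (33.4 CPM). The medians of the macrophage sum (1731 CPM in PBS, 2478 in ICT) and the monocyte sum (353 and 592 CPM) were higher with ICT. The part of these cells in the change of the 9 genes was not tested.

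**Figure D2:**
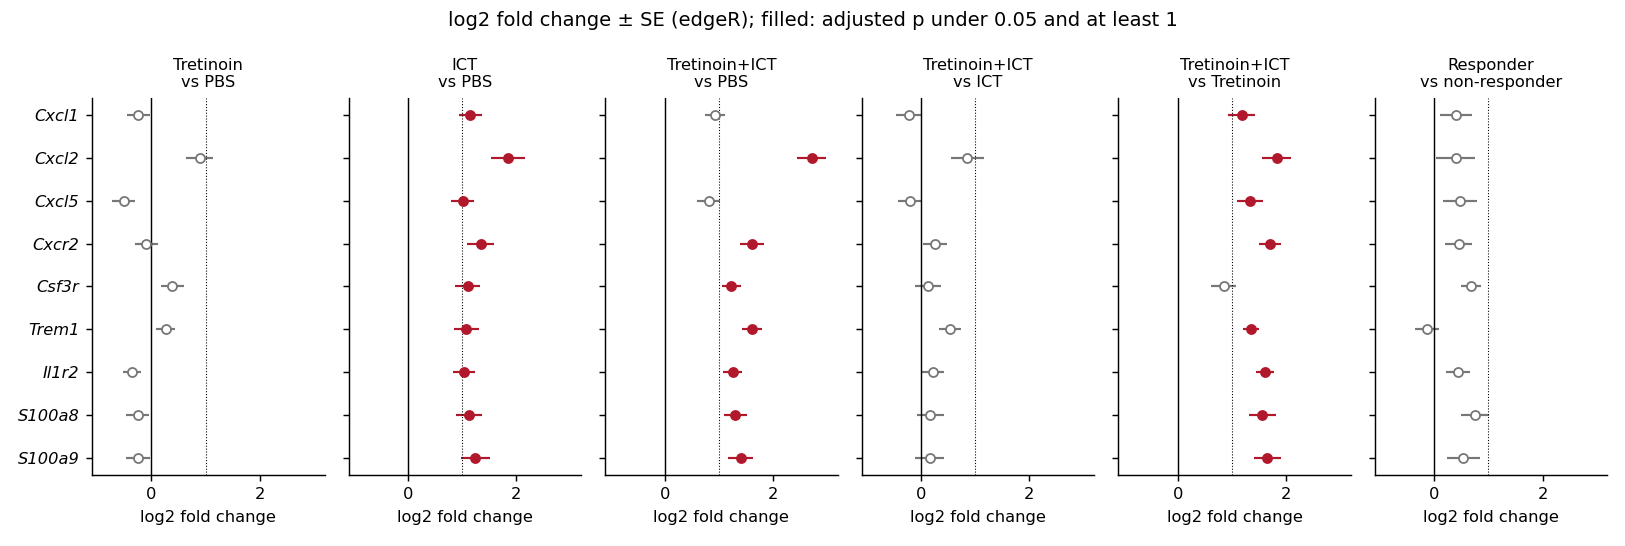
log2 fold change with its standard error (bars) for each of the 9 genes in 6 comparisons, filled where the adjusted p is under 0.05 and the fold change at least 1 (dotted line). Filled points appear in the ICT versus PBS panel (9), the tretinoin+ICT versus PBS panel (7) and the tretinoin+ICT versus tretinoin panel (8), and in no other.

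Tretinoin alone gave a different picture. None of the 9 genes was called against PBS, where 1.49% of 14340 genes were called higher, and DESeq2 as run here called none of the 9 either. The study's supplement does list Cxcl2 among its differentially expressed genes for tretinoin against PBS. The study used DESeq2 with the same p threshold and fold minimum. 3 genes had an unadjusted p under 0.05 by edgeR, Cxcl2 (higher), Cxcl5 and Il1r2 (both lower), and so had 35.3% of all genes tested. 6 of the 9 log2 fold changes were below 0, and the median was -0.24, against 0.01 over all genes. The 3 above 0 were Cxcl2, Csf3r (0.38 ± 0.21, adjusted p = 0.209) and Trem1 (0.26 ± 0.18, adjusted p = 0.326). Cxcl2 had 1.103, 2.14 and 4.35 CPM in tretinoin tumours, above its PBS values in 5 of 9 tumours and above the PBS median in 8 of 9, a log2 fold change of 0.89 ± 0.25 with adjusted p = 0.0186. It was the 1 gene of the 9 past the p threshold in the higher direction, as 11.5% of genes tested were. Cxcl1 (2.97, 5.15 and 11.7 CPM, -0.24 ± 0.21, adjusted p = 0.443) and Cxcl5 (9.46, 16.03 and 31.7 CPM, -0.52 ± 0.22, adjusted p = 0.0996) had medians below those of PBS, and 6 of 9 tretinoin tumours were below every PBS tumour for Cxcl5. Neither passed the test. Cxcr2 had almost the same range as in PBS tumours (4.43, 8.12 and 11.2 CPM, -0.09 ± 0.21), and S100a8, S100a9 and Il1r2 had log2 fold changes of -0.25, -0.25 and -0.36.

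Tumour 33 stood apart in the tretinoin group. It was the highest of 9 for Cxcl1, Cxcl2, Cxcl5, Csf3r, Trem1 and S100a8, and its Csf3r level of 138.4 CPM was more than the next tumour's 63.6 CPM by a wide gap. Without tumour 33 the Cxcl2 change was 0.69 (adjusted p = 0.0438), and that of Csf3r 0.13 in place of 0.38.

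Because all 3 ligands bind the same receptor, their proportions were also examined within each tumour, where both values come from the same library. The ratio was picked after its values were seen, so it is given without a test. Per kilobase, the ratio of Cxcl2 to Cxcl1 was 0.0654, 0.151 and 0.237 (lowest, median, highest) in PBS tumours and 0.243, 0.305 and 0.703 in tretinoin tumours, which did not overlap. With ICT it was 0.132, 0.231 and 0.3 without tretinoin and 0.34, 0.505 and 0.658 with tretinoin, again without overlap. Both name series of each tretinoin-treated group lay above both series of its comparison group: the 4 series medians were 0.305 and 0.303 for tretinoin against 0.143 and 0.17 for PBS, and 0.485 and 0.545 for tretinoin+ICT against 0.22 and 0.257 for ICT. By contrast, the ratio of Cxcl5 to Cxcl1 had overlapping ranges in the 4 groups, with medians of 3.38 (PBS), 2.74 (tretinoin), 3.33 (ICT) and 3.35 (tretinoin+ICT). In responders and non-responders of the combined group the Cxcl2 to Cxcl1 ratio had medians of 0.515 and 0.496. Cxcl2 counts were low (7 to 35 per PBS tumour and 22 to 81 per tretinoin tumour), so the single-tumour ratios carry sizeable counting error.

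**Figure D3:**
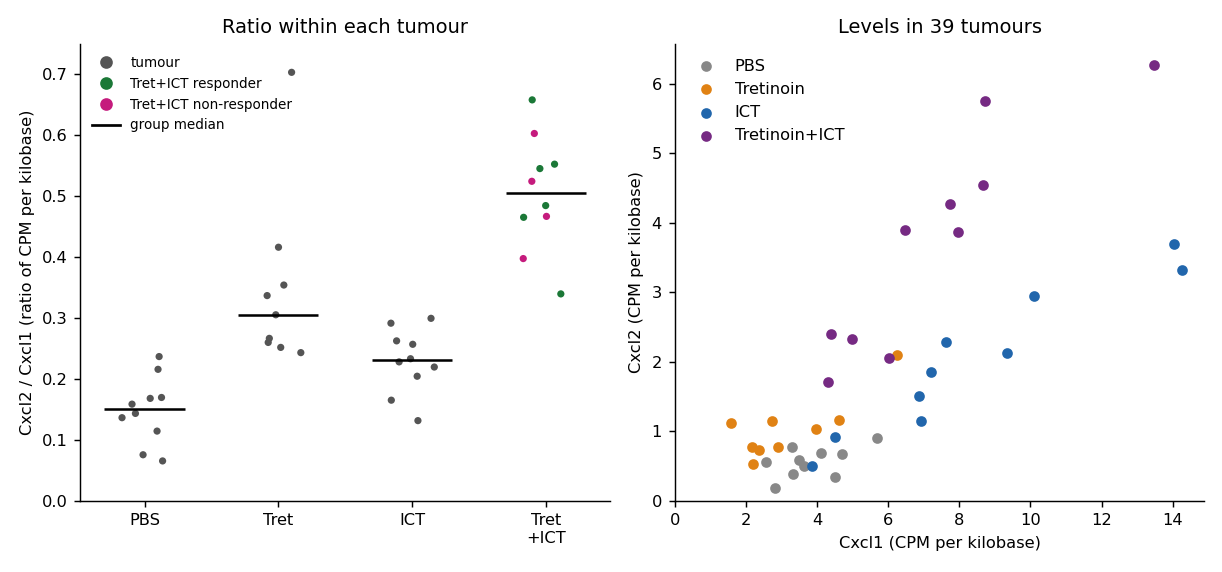
Left, the ratio of Cxcl2 to Cxcl1 (both in CPM per kilobase of exon) in each tumour of the 4 treatment groups, with a bar at the median. Right, Cxcl2 against Cxcl1 in the same units, 1 point per tumour. The ratio is higher in every tretinoin tumour than in any PBS tumour (medians 0.305 and 0.151). It is also higher in every tretinoin+ICT tumour than in any ICT tumour (medians 0.505 and 0.231). Tretinoin tumours (0.243 to 0.703) and ICT tumours (0.132 to 0.3) overlap.

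In the combined group, levels were compared with PBS, with ICT and with tretinoin. All 3 comparisons use the same 10 combined tumours, and the values are given side by side. Against PBS, 7 of the 9 genes were called (5.45% of 14265 genes were called higher). Cxcl1 (0.93 ± 0.19) and Cxcl5 (0.82 ± 0.22) had adjusted p-values of 0.000401 and 0.00384 but stayed under the fold minimum, so that all 9 passed the p threshold, as 25.7% of genes did. Cxcl2 had 3.54, 8.03 and 12.97 CPM in the combined group, 2.72 ± 0.27 above PBS on the log2 scale (adjusted p = 3.06e-07). All 10 combined tumours lay above all PBS tumours for Cxcl2, and so they did for Cxcr2, Trem1, Il1r2 and S100a8. That made 5 of the 9 genes, and 3.77% of all genes tested did the same.

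Cxcr2 was at 16.2, 24.4 and 41.6 CPM in the combined group, 1.61 ± 0.22 above PBS, and Trem1 at 7.09, 10.1 and 15.1 CPM, 1.62 ± 0.19 above PBS. Il1r2 (10.8, 13.1 and 23.8 CPM) differed from PBS by 1.26 ± 0.18 and Csf3r (62.2, 106.1 and 164.7 CPM) by 1.23 ± 0.18. For the calprotectin pair the differences were 1.31 ± 0.21 (S100a8, 6.16, 8.56 and 18.2 CPM) and 1.41 ± 0.23 (S100a9, 13.9, 23.3 and 40.4 CPM). Leaving out single tumours gave 7 or 8 called genes, the eighth being Cxcl1 (1.01) without PBS tumour 14. Single name series against each other gave 7 to 9.

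Markers of other myeloid cells were also higher in the combined group than in PBS. The macrophage sum was 2233 to 3360 CPM and the monocyte sum 498 to 1097 CPM, against 1633 to 2364 and 293 to 664 CPM in PBS. All 8 of these markers had an adjusted p under 0.05, with Ly6c2 (2.20), Mertk (1.23) and Chil3 (4.91) past the fold minimum, and C1qa was 0.83 higher. Of the 5 eosinophil markers, Siglecf (1.59) and Prg2 (2.60) were called, and Prg2 was under 0.5 CPM in the median tumour. The sum of the list was 6.39 to 13.9 CPM in PBS and 8.54 to 32.1 CPM in the combined group, which overlapped. Against tretinoin, Ly6c2 was 1.88 higher, Mertk 0.68 higher (adjusted p = 0.00446), and the other markers of macrophages and monocytes except Chil3 stayed under the fold minimum. The part of these cells in the change of the 9 genes was not tested.

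Against tretinoin alone, 8 of the 9 genes were called in the combined group, with 1.87% of 14393 genes called higher. Il1r2 (1.62 ± 0.17, adjusted p = 1.97e-05), Trem1 (1.36 ± 0.15, adjusted p = 2.07e-05) and Cxcr2 (1.71 ± 0.20, adjusted p = 3.52e-05) had the smallest adjusted p-values. These 3 genes and S100a9 (1.66 ± 0.25) did not overlap between the groups, as 0.306% of genes tested did not. Cxcl2 differed by 1.83 ± 0.27, Cxcl5 by 1.33 ± 0.25, Cxcl1 by 1.18 ± 0.25 and S100a8 by 1.56 ± 0.25. The remaining gene, Csf3r, was 0.85 ± 0.23 higher (adjusted p = 0.017), under the fold minimum, and all 9 passed the p threshold, as 12.3% of genes did. Without tretinoin tumour 33 the Csf3r difference was 1.102 and 9 genes were called. Between single name series the number called went from 3 (series 4 against 3) to 9 (series 2 against 7).

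The comparison of the combined group with ICT asks what tretinoin added. Not one of the 9 genes was called by edgeR or by DESeq2, while 0.366% of 14202 genes were called higher by edgeR. Of all genes tested by edgeR, 18.1% had an unadjusted p under 0.05, and so had 2 of the 9. They were Cxcl2 (0.86 ± 0.31, p = 0.011, adjusted p = 0.162) and Trem1 (0.53 ± 0.20, p = 0.0158, adjusted p = 0.185). Of the combined tumours, 6 of 10 had more Cxcl2 than any ICT tumour and 9 of 10 more than the ICT median. Cxcl1 and Cxcl5 had log2 fold changes of -0.23 ± 0.24 and -0.21 ± 0.23, and Cxcr2, Csf3r, Il1r2, S100a8 and S100a9 had 0.12 to 0.26 with standard errors of 0.20 to 0.27. An interaction term over all 39 tumours, which asks whether the change with tretinoin differed with and without ICT, passed its threshold for 46 of 14977 genes (0.307%) and for none of the 9. DESeq2 called none of them as well, and by edgeR 1 had an unadjusted p under 0.05. That gene was Il1r2, with 0.57 ± 0.27 (p = 0.045, adjusted p = 0.513), and Cxcl2 had an interaction of -0.03 ± 0.39.

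Responders and non-responders of the combined group were then compared, 6 tumours against 4. No gene of the transcriptome was called by edgeR (0.0% of 14604 genes), although 3302 (22.6%) had an unadjusted p under 0.05, and DESeq2 called 108 genes higher and 13 lower, none of the 9 among them. 8 of the 9 genes had a log2 fold change above 0. Csf3r was 86.0, 132.0 and 164.7 CPM in responders and 62.2, 77.7 and 103.4 CPM in non-responders, a difference of 0.68 ± 0.19 (p = 0.00372, adjusted p = 0.0922). 5 of 6 responders were above every non-responder. S100a8 was 8.04, 12.7 and 18.2 CPM in responders and 6.16, 7.66 and 8.67 CPM in non-responders (0.75 ± 0.26, p = 0.0131, adjusted p = 0.121), with 4 of 6 responders above every non-responder. Trem1 was the gene below 0, at -0.13 ± 0.22, with medians of 9.00 CPM in responders and 11.4 CPM in non-responders. The other 6 genes had log2 fold changes of 0.39 to 0.53 with standard errors of 0.22 to 0.36.

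With no fold minimum, DESeq2 put Csf3r (adjusted p = 0.0105) and S100a8 (adjusted p = 0.0383) past the p threshold, while edgeR put none of the 9 there. With name series as a block the Csf3r difference was 0.77 (adjusted p = 0.122). Within series 2 it was 0.61, from 2 responders and 3 non-responders. Within series 4 it was 1.001, from 4 responders and a single non-responder, tumour 44. None of the 9 genes separated the groups without overlap, as 2.55% of genes tested did in the higher direction. Summed macrophage markers did: 2867 to 3360 CPM in responders and 2233 to 2684 CPM in non-responders. Summed basophil and mast cell markers did as well, at 79.2 to 114.9 against 65.9 to 74.9 CPM. Monocyte markers overlapped (536 to 1097 against 498 to 824 CPM), and so did T cell markers (29.1 to 65.4 against 25.6 to 37.6 CPM). All other marker lists overlapped as well, among them the leukocyte gene Ptprc (343 to 588 against 257 to 462 CPM). The part of these cells in the Csf3r and S100a8 values was not tested.

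The genes were then compared by how they varied among tumours given the same treatment. Whether the earlier results behind their choice drew on this variation is not known here. They were also grouped as neutrophil genes, so the correlations and their p-values describe the set. The mean of each of the 5 groups (responders and non-responders apart) was subtracted from log2 CPM, and each pair was correlated over the 39 tumours with a permutation test inside groups (two-sided, 100000 resamples). Over the 39 tumours pooled, all 36 pairs were positively correlated, with Pearson's r from 0.48 to 0.92, and all 36 had a Benjamini-Hochberg adjusted p under 0.05 for both r and Spearman's rho. The median r was 0.718, against 0.0 over all pairs of 15655 genes, of which 6.24% had an r at least as high as the lowest of the 36. This background is a description, since pairs of genes are not independent. Cxcr2 and S100a9 were the closest pair (r = 0.922, rho = 0.934, both p = 1e-05, the smallest these resamples can give), and the relation held in every treatment (r = 0.867 in PBS, 0.973 in tretinoin, 0.952 in ICT and 0.927 in tretinoin+ICT). Other pairs were weaker within single treatments. The lowest r was 0.0717 in PBS (Trem1 with Il1r2), -0.368 in tretinoin (Cxcl2 with Il1r2, the 1 negative value), 0.679 in ICT and 0.156 in tretinoin+ICT, both of Csf3r with Trem1, and Cxcr2 with Trem1 had 0.0691 in tretinoin. S100a8 with S100a9 (r = 0.864, rho = 0.865), Cxcl5 with Cxcr2 (r = 0.864, rho = 0.873) and Cxcl1 with Cxcl5 (r = 0.84, rho = 0.794) came next. The receptor and its ligand Cxcl5 went up and down together from tumour to tumour. The weakest pairs held Il1r2 or Trem1: Trem1 with Il1r2 had r = 0.483 (rho = 0.495) and Cxcl1 with Il1r2 r = 0.489 (rho = 0.433, p = 0.00981). After the 2 tumours farthest from the median of the first gene were left out, r was 0.905 for Cxcr2 with S100a9 and 0.449 for Trem1 with Il1r2, and it stayed above 0.3 in all 36 pairs. Subtracting the mean of each name series and response label instead also left all 36 above 0.3.

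**Figure D4:**
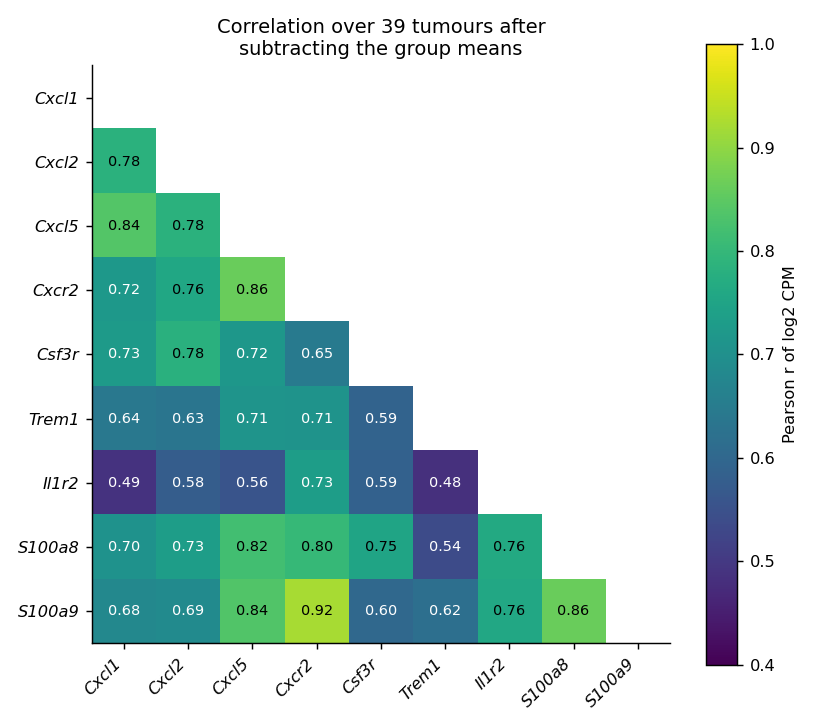
Pearson's r of log2 CPM over 39 tumours for each of the 36 pairs of genes, after the mean of each group was subtracted. All are positive, from 0.48 (Trem1 with Il1r2) to 0.92 (Cxcr2 with S100a9).

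The same residuals were set against the summed markers of macrophages, monocytes and T cells, 27 relations in all, and 20 had an adjusted p under 0.05 for r and 17 for rho. Csf3r was the member most closely tied to all 3 lists: r was 0.857 with macrophage markers (rho = 0.718, permutation p adjusted over the 27 = 5.4e-05), 0.861 with monocyte markers (rho = 0.794) and 0.792 with T cell markers (rho = 0.626). Without its 2 farthest tumours these were 0.77, 0.846 and 0.748. Cxcr2 was less closely tied to macrophage markers (r = 0.375, rho = 0.344, permutation p adjusted over the 27 = 0.0415 for r and 0.0566 for rho) and S100a9 passed by neither (r = 0.349, rho = 0.327, permutation adjusted p = 0.068 and 0.0705). With monocyte markers Cxcr2 had r = 0.622 and S100a9 r = 0.577. The difference between these correlations was not tested.

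By the likeness of their pattern over the 39 tumours, Cxcr2 had as nearest genes Il1f9 (IL-36 gamma, r = 0.954, rho = 0.964), Hdc (histidine decarboxylase, which makes histamine, r = 0.938, rho = 0.933) and Olfm1 (r = 0.936, rho = 0.929), out of 13336 genes searched. S100a8 had Adam8, a membrane protease of leukocytes (r = 0.921), Olfm1 (0.915) and Hdc (0.913). Cxcl1 had Cxcl3, another CXCR2 ligand of the same chromosome 5 cluster (r = 0.914), Hdc (0.898) and Btk (0.894). Hdc was among the nearest genes of all 3. These values include the differences between treatments and are a description.

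A list of 49 other genes of neutrophil attraction, adhesion, granules and maturity, 46 of them with a row, gives the surroundings. With ICT against PBS, the median log2 fold change of the list was 0.72, and -0.02 over all genes. Of all genes 2.28% were called higher, and of the 36 list genes tested 13 were called higher and none lower. They were 2 of 6 attractants and growth factors, 5 of 16 receptors and adhesion molecules, 3 of 7 granule proteins and 3 of 7 transcripts of mature neutrophils. The largest were Chil3, a secreted chitinase-like protein of neutrophils and alternatively activated myeloid cells (2.63 ± 0.43), Mmp8, the neutrophil collagenase (2.10 ± 0.29), Ltb4r1, the leukotriene B4 receptor (1.83 ± 0.30), and Cd177, a neutrophil surface glycoprotein (1.76 ± 0.26). Chil3 is also one of the monocyte markers summed above, so in every comparison its change in the 2 lists is the same observation. Mmp8 and Cd177 rested on small numbers, with 1 to 17 and 3 to 20 counts per PBS tumour.

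With tretinoin alone 8 of 35 list genes were called higher, beside 1.49% of all genes, and none lower (list median 0.17, all genes 0.01). Clec4d (-0.42, adjusted p = 0.00802 by edgeR) and Il1rap (-0.35, adjusted p = 1.98e-05) were lower past the p threshold, but under the fold minimum. The 8 called genes included Chil3 (2.45 ± 0.73, adjusted p = 0.0249), Il1a, an alarmin cytokine that sets off chemokine production (2.38 ± 0.48), Prtn3, proteinase 3 of the azurophil granule (1.86 ± 0.28), and Padi4, the enzyme that citrullinates histones for neutrophil extracellular traps (1.64 ± 0.22). Tumour 33 was the highest for Chil3 (40.8 CPM, group median 4.23) and for Il1a (14.6 CPM, group median 2.37). Without it Chil3 was no longer called (1.52, adjusted p = 0.0838), while Il1a (1.67), Prtn3 (1.76) and Padi4 (1.54) were. Padi4 was 1.76 to 5.43 CPM in tretinoin and 0.71 to 1.61 CPM in PBS tumours. Prtn3 was 1.15 to 4.03 CPM in tretinoin and 0.219 to 1.17 CPM in PBS tumours. Over the same comparison Cxcr2, S100a8 and S100a9 did not pass the test, and the difference between the 2 sets of genes was not tested.

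In the combined group 21 of 37 list genes were called higher than in PBS, beside 5.45% of all genes, and none lower. The list median was 1.22, and -0.01 over all genes. Chil3 (4.91 ± 0.60) went from 0.343, 1.29 and 2.94 CPM to 7.32, 37.7 and 147.2 CPM. Il1a was 3.30 ± 0.28 higher, the growth factor Csf2 (GM-CSF) 3.25 ± 0.35 and Ltb4r1 2.74 ± 0.32. Csf2 had just 3 to 15 counts per PBS tumour. Against ICT, where 0.366% of all genes were called higher, 5 of 38 list genes were called in the combined group, and all 5 were higher. They were Chil3 (2.27 ± 0.55, adjusted p = 0.0326), G0s2, an inhibitor of lipolysis abundant in neutrophils (2.17 ± 0.22, adjusted p = 5.33e-06), Il1a (1.91 ± 0.41, adjusted p = 0.0142), Prtn3 (1.85 ± 0.39, adjusted p = 0.0118) and Padi4 (1.54 ± 0.38, adjusted p = 0.0363), the last named after its value was seen. For G0s2 the groups were far apart: 1.53, 3.19 and 4.24 CPM with ICT and 8.02, 12.1 and 23.1 CPM with both.

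Against tretinoin, where 1.87% of all genes were called higher, 17 of 37 list genes were called in the combined group, none lower. The list median was 0.81 (all genes 0.00). Chil3 (2.46 ± 0.79), Lcn2, the iron-binding lipocalin of the specific granule (2.19 ± 0.44), Mmp8 (2.08 ± 0.32) and Cd177 (2.04 ± 0.32) had the largest values. Between responders and non-responders no list gene of 39 was called (0.0% of all genes higher), with a list median of 0.45 and 0.01 over all genes. The interaction term passed for none of 38, and for 0.307% of all genes.

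**Figure D5:**
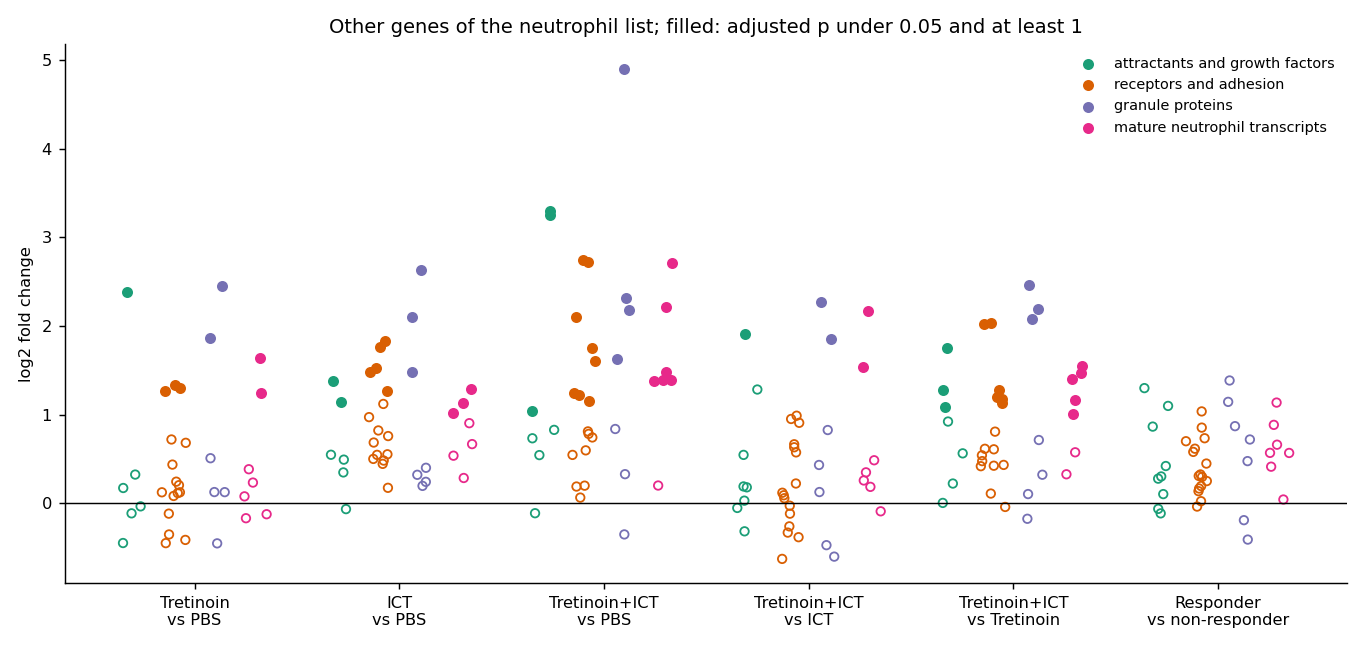
log2 fold change of each tested gene of the neutrophil list other than the 9, coloured by role, in 6 comparisons, filled where called. Filled points are all above 0 and number 8, 13, 21, 5, 17 and 0 from left to right.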

How the data were processed

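Bulk RNA from 39 tumours was sequenced on 1 flow cell. Per the labels and the study's methods, the authors demultiplexed with bcl2fastq 2.20.0.422, aligned single-end reads with HISAT2 2.0.4 to mm11 (their name for the mouse build), used SummariseOverlaps to assign them to genes, and deposited raw counts. Strand mode and multi-mapping reads were not described in the sources used here. Identifiers were matched to GENCODE M21 on GRCm38 (36719 of 39676, 92.55%), from which positions were taken. Groups were taken from the labels. No label says which tumours were prepared together, and p-values measure the spread between tumours. No 2 libraries were alike within counting error.

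The members and all lists were chosen with earlier results of these data known. Each pair of groups was fitted over all genes with edgeR 4.0.16 (R 4.3.3; TMM, filterByExpr, robust quasi-likelihood), with Benjamini-Hochberg adjustment, and a call needed adjusted p under 0.05 and at least 1 in either direction on the log2 scale. All 9 genes passed the low-count filter in every comparison. SE was derived from the F statistic. The fits were tested on simulated data. Genes named from the neutrophil list are the up to 4 called genes of largest change per comparison. The nearest genes are the 3 with highest r among genes with a mean log2 CPM of at least 0. Of the pairs planned for correlation, 36 could be formed, as Retnlg had no row. Correlations and plots used numpy, scipy and matplotlib. DESeq2 1.42.0 and other settings were alternatives. Levels of marker lists are sums of CPM. No protein sequences were used.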

Additional observations from a re-analysis of the deposited data

Results flagged for a closer look

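For each gene and group, the gap between the most extreme tumour and its neighbour was divided by the range of the group (CPM; 45 groups of 4 to 10 tumours). Of these, 4 exceeded the 95% limit of Dixon's test, which chance alone exceeds in about 1 of 20 groups of normally distributed values. CPM was not log-transformed and the groups share tumours, so that rate need not hold here. Tretinoin tumour 33 was one for Cxcl2 (4.35 CPM against 2.41 for the next, ratio 0.598) and for Csf3r (138.4 against 63.6 CPM, ratio 0.746). PBS tumour 14 was one for Csf3r (78.8 against 50.7 CPM, ratio 0.605), and tretinoin tumour 34 for Il1r2 (7.83 against 5.66 CPM, ratio 0.495).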

How the results depend on the processing

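Of 174 recomputed counts of called genes, 161 stayed within 1.5 times the reported count, and of 1337 recomputed values of single genes and pairs none that was called changed direction, 55 lost their call and 12 gained one. Leaving out tumours gave 6 to 9 called genes for ICT against PBS, 7 to 8 for tretinoin+ICT against PBS, 8 to 9 against tretinoin, and 0 to 0 for tretinoin against PBS (2 tumours tried), tretinoin+ICT against ICT (3 tried) and response (10 tried). The leave-outs of the treatment comparisons and the subtraction of series means in the correlations were added after the data were seen. Single name series gave 0 for ICT against PBS in series 6 against 1, 6 against 5 and 8 against 1, with 9 in the whole groups, and 5 (series 2 against 3) and 3 (series 4 against 3) for tretinoin+ICT against tretinoin, in place of 8. These fits hold fewer tumours. For tretinoin against PBS, 1 gene, Cxcl2, was called between series 3 and 5 or with no fold minimum. The neutrophil list counts moved with no fold minimum from 13 to 26 (ICT against PBS) and from 5 to 8 (tretinoin+ICT against ICT), and requiring 10 counts in every tumour, which tests fewer genes, gave 5 in place of 8 (tretinoin against PBS) and 2 in place of 5 (tretinoin+ICT against ICT). With no low-count filter the last was 3, and DESeq2 called 1 list gene for response, where edgeR called 0. The cause of these last changes was not tested. Name series as a replicate block in the response comparison left 0 of the 9 genes called, as without it. The replicate numbers follow accession order and pair no tumours. Cxcl2 dropped out under the 10-count minimum wherever PBS tumours were compared, and its values are the least deeply counted of the 9.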

Other observations

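Further marker lists had the following summed levels in PBS, tretinoin, ICT and tretinoin+ICT tumours. Eosinophil markers had medians of 8.78, 10.7, 9.04 and 17.7 CPM, with Epx and Prg2 under 0.5 CPM in the median tumour. Basophil and mast cell markers had medians of 79.7, 65.8, 88.4 and 79.7 CPM, and platelet markers 20.4, 16.2, 24.2 and 22.6 CPM. Skeletal muscle markers were abundant and variable, from 243 to 2944 CPM over all tumours, and red blood cell markers ran from 11.6 to 136.9 CPM. Epidermal markers had medians of 1.5 to 3.86 CPM with a highest value of 37.1 CPM, endothelial markers medians of 183 to 226 CPM and fibroblast markers 1883 to 2708 CPM.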
